A study of Mus musculus with 6 samples.

Results

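The 10 genes described here encode subunits of the transcription factor NF-κB (Nfkb1, Nfkb2, Rela and Relb), its IκB inhibitors (Nfkbia and Nfkbie), the nuclear IκB-like proteins (Nfkbiz and Bcl3) and ubiquitin enzymes of the same pathway (Tnfaip3 and Birc3). They were chosen by name for their place in the pathway, with earlier results of these data known. Each was found by Ensembl identifier among the 22556 genes listed. All 10 passed the filter of a mean of at least 1 TPM (a transcript level corrected for gene length and library size). RNA of the whole pancreas was sequenced from wild-type C57BL/6 mice at 8 weeks of age, with 2 mice in each of 3 groups. Saline mice received no caerulein, AP mice received 10 injections of caerulein to induce acute pancreatitis (AP), and polyI:C-pretreated AP mice received polyI:C at 10 mg/kg before the same caerulein course (pretreated mice in the following). Per the methods of the study, the pancreas was taken at 24 h, while the labels give the treatment only. No group received polyI:C alone among the mice analysed here, so polyI:C was compared only on top of caerulein.

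NF-κB dimers wait in the cytoplasm, held by IκB proteins or as uncut precursors. In the canonical route, receptors for TNF, IL-1 or microbial products activate a kinase complex that marks IκBα for destruction, and dimers of RelA and p50 enter the nucleus. In the noncanonical route, processing of the Nfkb2 product p100 to p52 releases dimers with RelB. Many NF-κB genes are themselves NF-κB targets: IκBα, IκBε, A20 (from Tnfaip3), p100 and Bcl-3 are made in response to the factor and then restrain or redirect it. Caerulein is an analogue of cholecystokinin that overstimulates acinar cells, in which NF-κB activation is an early event of experimental pancreatitis. PolyI:C is a synthetic double-stranded RNA that is sensed by TLR3 and by cytoplasmic RNA sensors.

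Promoter sequence of RefSeq (GRCm38.p6, 250 bases before to 50 bases after a transcript start) was matched by symbol for 7 of the 10 genes, namely Nfkb2, Rela, Nfkbia, Nfkbie, Tnfaip3, Bcl3 and Birc3. The κB consensus was searched on both strands, and overlapping matches were counted. It was found in 5 of the 7, with none in the windows of Rela and Birc3, and 9.55% of all 27025 genes with a window held it. A match describes the letters only, and binding was not measured in these samples. The stretches below are shown because the products of these 5 genes act back on NF-κB, and the capitals mark the match.
Nfkb2: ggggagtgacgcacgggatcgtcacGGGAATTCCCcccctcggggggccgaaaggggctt
Nfkb2, nearer the start: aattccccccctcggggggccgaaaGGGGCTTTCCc
Nfkbia: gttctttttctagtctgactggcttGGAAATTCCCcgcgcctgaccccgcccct
Nfkbie: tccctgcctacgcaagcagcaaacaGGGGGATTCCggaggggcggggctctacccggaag
Tnfaip3: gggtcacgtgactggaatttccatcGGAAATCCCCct
Tnfaip3, further from the start: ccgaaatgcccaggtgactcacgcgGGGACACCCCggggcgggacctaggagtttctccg
Bcl3: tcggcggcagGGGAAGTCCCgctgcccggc

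The first Nfkb2 stretch lies at chr19:46304673-46304732 on the plus strand, with its match at positions -39 to -30 from the start and another match shifted by a single base. The other lies at chr19:46304701-46304736, with its match at -11 to -2. The Nfkbia stretch lies at chr12:55492648-55492701 on the minus strand, with the match at -29 to -20. For Nfkbie, the stretch is chr17:45555569-45555628 on the plus strand, and the match lies at -106 to -97. The Tnfaip3 stretches are chr10:19015411-19015447 and chr10:19015501-19015560 on the minus strand, with matches at -12 to -3 and at -125 to -116. The Bcl3 match lies just after the start, at positions 3 to 12, within chr7:19822734-19822763 on the minus strand. The windows of later Nfkb2 starts hold 2 further sites, 1 of them within both windows.

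Each library was estimated to hold between 3297155 and 10826318 reads, from the spacing of low TPM values. The saline libraries were the smallest, so low genes were measured least precisely there. Replicate mice differed by a median of 0.29 (saline), 0.19 (AP) and 0.21 (pretreated) on the log2 scale. A gene was called changed when limma gave an adjusted p (Benjamini-Hochberg, over the 16814 tested genes) not above 0.05 and a fold change of 2 or more on the log2(TPM + 0.5) scale. For a single gene, an exact two-sided permutation test of 2 against 2 mice cannot go below p = 0.333, so the tests rest on the spread shared across genes by limma. The labels do not say whether the mice of a group came from separate experiments, and the p-values measure the spread between these samples. The AP mice stand in 2 of the 3 comparisons, and so do the saline and the pretreated mice.

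Every NF-κB gene examined was higher in the pancreas of AP mice than in that of saline mice. All 10 were called higher, where 18.2% of all tested genes were, and the levels of the groups did not overlap for any of the 10, where 52.6% of all tested genes were higher without overlap. The noncanonical pair Nfkb2 and Relb had log2 fold changes of 3.23 and 2.87, Rela had 2.22, and Nfkb1 had 1.10. Summed monocyte and macrophage markers (7 of 7 measured, most abundant Lyz2) were higher as well, at 523 and 359 TPM in saline against 2300 and 2549 TPM in AP mice, with 6 of the 7 called, and their part in the result was not tested. In bulk tissue, fewer cells of a type and less RNA per cell cannot be told apart. The median over the 10 genes was 2.24, beside 0.45 over all tested genes. That general shift depended on the scaling of the libraries: median-of-ratios scaling moved the median of all genes to 0.04, changed the numbers of genes called higher and lower from 3053 and 677 to 1534 and 1249, and left 6 of the 10 called, where 9.12% of all genes were called higher. The 4 genes that no longer reached the fold threshold were Nfkb1 (0.67), Nfkbia (0.92), Nfkbiz (0.97) and Birc3 (0.79), all still higher with limma adjusted p between 0.000831 and 0.00956.

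In pretreated mice against AP mice, 0 of the 10 genes were called by limma, where 0.404% of all tested genes were called lower and 0.44% higher. At an unadjusted p under 0.05, 4 of the 10 were lower (Nfkbia, Nfkbie, Rela and Tnfaip3, against 6.07% of all genes), and voom on estimated reads also called 0 of the 10 (1.25% of all genes were lower and 0.672% higher by it). Levels were lower without overlap for 7 genes (22.1% of all genes) and higher without overlap for Nfkbiz and Bcl3 (27.7% of all genes), and the mice of both groups overlapped for Birc3. The median log2 difference was -0.30, beside 0.04 over all genes. The macrophage markers summed to 478 and 384 TPM in pretreated mice, with 4 of the 7 called lower, and their part in these differences was not tested. Against saline mice, 7 of the 10 were called higher in pretreated mice, where 16.9% of all genes were (2838 higher and 500 lower, or 1289 and 1003 with median-of-ratios scaling, which left the same 7 called), and the groups did not overlap for any of the 10 (54.4% of all genes). Nfkb1, Nfkbia and Birc3 were the 3 below the fold threshold.

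**Figure D1:**
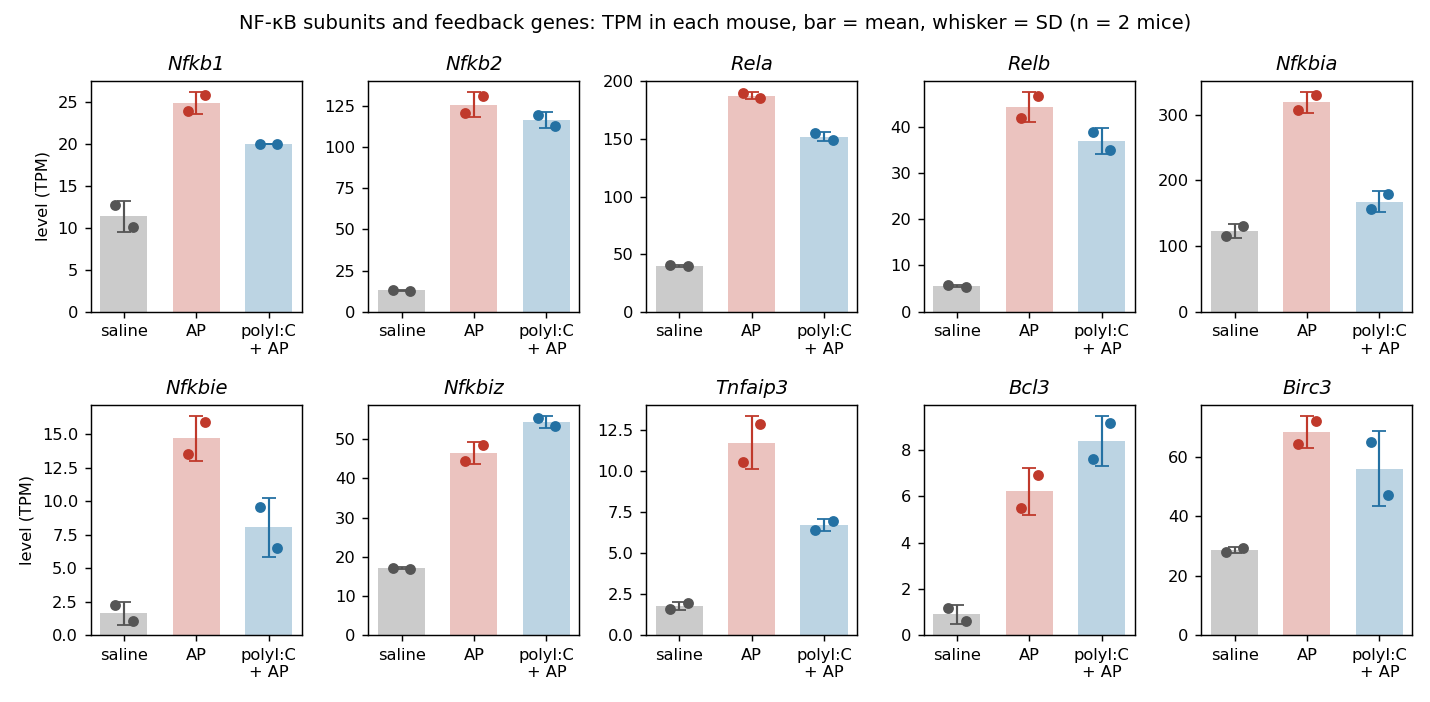
Levels of the 10 genes in TPM (vertical axis, from 0, with its own scale for each gene) in saline, AP and pretreated mice, where points are mice, bars are means and whiskers are the SD of 2 mice. Every AP mouse lies above both saline mice for each gene, and Nfkbiz and Bcl3 are the genes whose pretreated mice both lie above the AP mice.

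Rela encodes RelA (p65), the main transactivating subunit of the canonical dimer (GRCm38 chromosome 19, 5637483 to 5648130). Its level was 40.6 and 39.4 TPM in saline mice, 190 and 185 TPM in AP mice, and 155 and 149 TPM in pretreated mice. The 3 groups were fully separated, with AP mice highest. The log2 fold change was 2.22 (SE 0.09, limma adjusted p = 3.19e-05) in AP against saline mice. Between pretreated and AP mice, it was -0.30 (95% interval -0.51 to -0.09, limma adjusted p = 0.195). Rela rose in pretreated mice against saline mice, by 1.91 on the log2 scale (limma adjusted p = 4.21e-05).

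Nfkb1 encodes p105 and its product p50, the DNA-binding partner of RelA (chromosome 3, 135584655 to 135691547). Saline mice had 12.7 and 10.03 TPM, AP mice 23.8 and 25.7 TPM, and pretreated mice 19.99 and 19.96 TPM. The groups did not overlap, and the range was narrower than that of the other subunits. Nfkb1 rose by 1.10 on the log2 scale in AP mice (SE 0.13, limma adjusted p = 0.00105), just past the fold threshold, and without saline replicate 2 the value was 0.94. The log2 difference between pretreated and AP mice was -0.30 (95% interval -0.62 to 0.01, limma adjusted p = 0.381). Against saline mice, pretreated mice had a log2 fold change of 0.80, which had a limma adjusted p of 0.00398 and stayed under the fold threshold.

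Nfkb2 encodes p100, which is both the precursor of p52 and an inhibitor of NF-κB dimers (chromosome 19, 46304320 to 46312385). It stood at 13.2 and 12.7 TPM in saline mice, 121 and 131 TPM in AP mice, and 120 and 113 TPM in pretreated mice. The caerulein-treated mice of both groups lay far above the saline mice and close to each other. Nfkb2 rose 9.41-fold in AP mice (log2 3.23, SE 0.10, limma adjusted p = 1.32e-05), the largest fold change of the 10 genes with all mice, while without saline replicate 1 it was 3.26 beside 3.30 for Nfkbie on the log2 scale. It was 8.70-fold higher than in saline mice with polyI:C pretreatment (limma adjusted p = 1.87e-05). Between pretreated and AP mice the log2 difference was -0.11 (95% interval -0.34 to 0.12), an interval that leaves no change as large as the fold threshold. Exons of Nfkb2 share 299 bases with Psd on the opposite strand, and whether reads were counted by strand is not given in the sources used here.

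Relb encodes RelB, the partner of p52 in the noncanonical dimer (chromosome 7, 19606217 to 19629438). Its 2 saline mice had 5.79 and 5.44 TPM, the AP mice 41.9 and 46.5 TPM, and the pretreated mice 38.9 and 34.9 TPM. The groups were separated, with the lowest AP mouse only slightly above the highest pretreated mouse. Relb rose 7.30-fold in AP mice (log2 2.87, SE 0.13, limma adjusted p = 4.41e-05) and 6.11-fold in pretreated mice (limma adjusted p = 5.77e-05). The log2 difference between these groups was -0.26 (95% interval -0.57 to 0.06, limma adjusted p = 0.457).

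**Figure D2:**
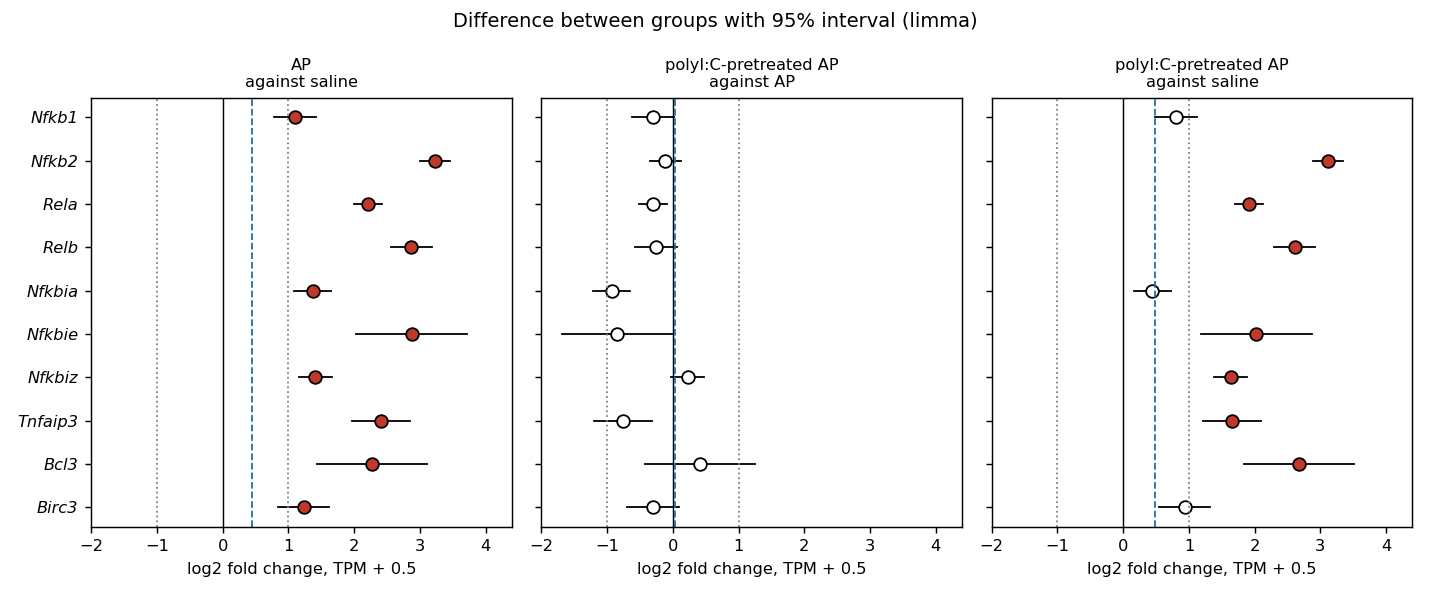
Log2 fold change on the TPM + 0.5 scale (horizontal axis) of the 10 genes in the 3 comparisons, with 95% limma intervals and n = 2 mice per group. Filled points passed the threshold, dotted lines mark a 2-fold change and the blue dashed line the median of all tested genes. All 10 points are filled in AP against saline mice, none in pretreated against AP mice, and 7 in pretreated against saline mice.

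Nfkbia encodes IκBα, the inhibitor that is degraded and resynthesised in the canonical response (chromosome 12, 55489410 to 55492647). Levels were 116 and 131 TPM in saline mice, 308 and 330 TPM in AP mice, and 157 and 179 TPM in pretreated mice. The pretreated mice lay nearer to the saline mice than to the AP mice, without overlap with either. Nfkbia rose by 1.37 on the log2 scale in AP mice (SE 0.12, limma adjusted p = 0.000298). In pretreated mice its level was 0.526 of that in AP mice, a log2 difference of -0.93 (95% interval -1.21 to -0.65, limma adjusted p = 0.0246). It was the single gene of the 10 with an adjusted p under the threshold in that comparison, where 0.517% of all genes were lower by this measure, and it missed the 2-fold limit. Quantile normalization took it past that limit, where 0.589% of all genes were called lower. Over the 15 alternatives the log2 difference ranged from -1.04 to -0.83 and the limma adjusted p from 0.00482 to 0.364. Against saline mice, its log2 difference in pretreated mice was 0.44 (limma adjusted p = 0.0242), and it turned to -0.03 with median-of-ratios scaling.

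Nfkbie encodes IκBε, an inhibitor that is induced later than IκBα and acts on RelA and c-Rel dimers (chromosome 17, 45555703 to 45563169). It was low in saline mice, with 2.26 and 1.04 TPM, which stand for about 10.02 and 3.77 estimated reads. AP mice had 13.5 and 15.9 TPM, and pretreated mice 9.61 and 6.51 TPM. All 3 groups were separated, and the pretreated mice lay between the other groups. Nfkbie rose by 2.88 on the log2 scale in AP mice (SE 0.35, limma adjusted p = 0.0011). The difference between pretreated and AP mice was -0.85 (95% interval -1.69 to -0.01, limma adjusted p = 0.355). In pretreated against saline mice it was 2.03 (limma adjusted p = 0.00468), and without pretreated replicate 1 it was 1.76 with a limma adjusted p of 0.0665, above the threshold.

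Nfkbiz encodes IκBζ, a nuclear protein that works with p50 on a set of secondary response genes (chromosome 16, 55811375 to 55838899). The saline mice had 17.3 and 16.9 TPM, the AP mice 44.3 and 48.4 TPM, and the pretreated mice 55.4 and 53.2 TPM. Here the pretreated mice were the highest, without overlap. Nfkbiz rose by 1.41 on the log2 scale in AP mice (SE 0.11, limma adjusted p = 0.000188) and by 1.64 in pretreated mice (limma adjusted p = 0.000127), both against saline mice. The log2 difference between the caerulein groups was 0.23 (95% interval -0.03 to 0.48, limma adjusted p = 0.414).

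Bcl3 encodes Bcl-3, a nuclear IκB family protein that binds p50 and p52 homodimers (chromosome 7, 19808462 to 19822770). It was the lowest of the 10 genes in saline mice, at 1.197 and 0.631 TPM, which stand for about 4.31 and 1.85 estimated reads. Its saline mean of 0.914 TPM was below the filter, which it passed through the caerulein groups. AP mice had 5.49 and 6.93 TPM, and pretreated mice 7.62 and 9.16 TPM. As for Nfkbiz, the pretreated mice both lay above the AP mice. Bcl3 rose by 2.27 on the log2 scale in AP mice (SE 0.35, limma adjusted p = 0.0027) and by 2.68 in pretreated mice (limma adjusted p = 0.00152). These values understate the ratio of the levels, because 0.5 TPM was added to a low saline level. Between the caerulein groups the log2 difference was 0.41 (95% interval -0.43 to 1.24, limma adjusted p = 0.68), an interval wide enough to hold changes of more than 2-fold upwards.

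Tnfaip3 encodes A20, a ubiquitin-editing enzyme that switches off signalling from TNF and Toll-like receptors (chromosome 10, 19000910 to 19015657). Its level was 1.64 and 1.96 TPM in saline mice, 10.6 and 12.9 TPM in AP mice, and 6.45 and 6.996 TPM in pretreated mice. The pretreated mice lay between the other groups, clear of both. Tnfaip3 rose by 2.41 on the log2 scale in AP mice (SE 0.19, limma adjusted p = 0.000207) and by 1.65 in pretreated mice (limma adjusted p = 0.000872). The log2 difference between the caerulein groups was -0.76 (95% interval -1.20 to -0.31), with an unadjusted limma p of 0.00521 and an adjusted p of 0.132, and over the 15 alternatives that adjusted p ranged from 0.0342 to 0.609.

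Birc3 encodes cIAP2, a ubiquitin ligase of the TNF receptor complex that also keeps the noncanonical kinase NIK low (chromosome 9, 7848699 to 7873186). It stood at 28.03 and 29.3 TPM in saline mice, 64.3 and 72.1 TPM in AP mice, and 64.9 and 47.0 TPM in pretreated mice. A pretreated mouse lay within the AP range and the other below it, so these groups overlapped. Birc3 rose by 1.23 on the log2 scale in AP mice (SE 0.16, limma adjusted p = 0.00151). The log2 difference between the caerulein groups was -0.30 (95% interval -0.69 to 0.09, limma adjusted p = 0.496). Against saline mice, pretreated mice had 0.93 (limma adjusted p = 0.00492), under the fold threshold, and without pretreated replicate 2 the value was 1.17, which passed it.

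The order of the levels between genes, which rests on the length correction of TPM, changed little at the top. The gene lengths used for TPM are not given in the sources used here, so the places are approximate. Nfkbia was highest in each group, with means of 123 ± 10.8, 319 ± 15.9 and 168 ± 15.8 TPM (SD, n = 2), followed by Rela with 40.0 ± 0.861, 188 ± 3.24 and 152 ± 4.28 TPM. Nfkb2 stood at place 5 in saline mice and at place 3 in the other groups. Bcl3 stood last in saline and AP mice, and at place 8 in pretreated mice, where its range overlapped that of Nfkbie. Other neighbours whose ranges overlapped were Tnfaip3 and Nfkbie as well as Nfkbie and Bcl3 in saline mice, Nfkbiz and Relb in AP mice, and Birc3 and Nfkbiz as well as Nfkbie and Tnfaip3 in pretreated mice.

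Ratios between the genes within a mouse do not change when a library is scaled by a single factor, and they are given as a description without a test. Nfkbia over Rela was 2.85 and 3.32 in saline mice, 1.62 and 1.78 in AP mice, and 1.01 and 1.199 in pretreated mice. Nfkbia was thus lower relative to Rela in AP mice and lower again with polyI:C, without overlap. Nfkbie over Rela went the other way in AP mice, at 0.0557 and 0.0265 in saline and 0.0712 and 0.0858 in AP mice. The saline values rest on only about 10.02 and 3.77 estimated reads of Nfkbie. Pretreated mice had 0.0619 and 0.0436, which overlapped the saline mice. Nfkbiz over Nfkbia was 0.149 and 0.130, then 0.144 and 0.147, then 0.354 and 0.297 in the same order of groups. This ratio was alike in saline and AP mice and higher in both pretreated mice. Bcl3 over Nfkbia was 0.0104 and 0.00482 in saline mice, 0.0178 and 0.0210 in AP mice, and 0.0487 and 0.0512 in pretreated mice. Its saline values rest on only about 4.31 and 1.85 estimated reads of Bcl3. Nfkb2 over Nfkb1, the noncanonical over the canonical precursor, was 1.04 and 1.27 in saline mice, 5.06 and 5.10 in AP mice, and 5.99 and 5.66 in pretreated mice. The ratio was high in all 4 caerulein-treated mice. Tnfaip3 over Rela, by contrast, was 0.0404 and 0.0498 in saline mice and 0.0416 and 0.0469 in pretreated mice, which overlapped, and 0.0558 and 0.0697 in AP mice.

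**Figure D3:**
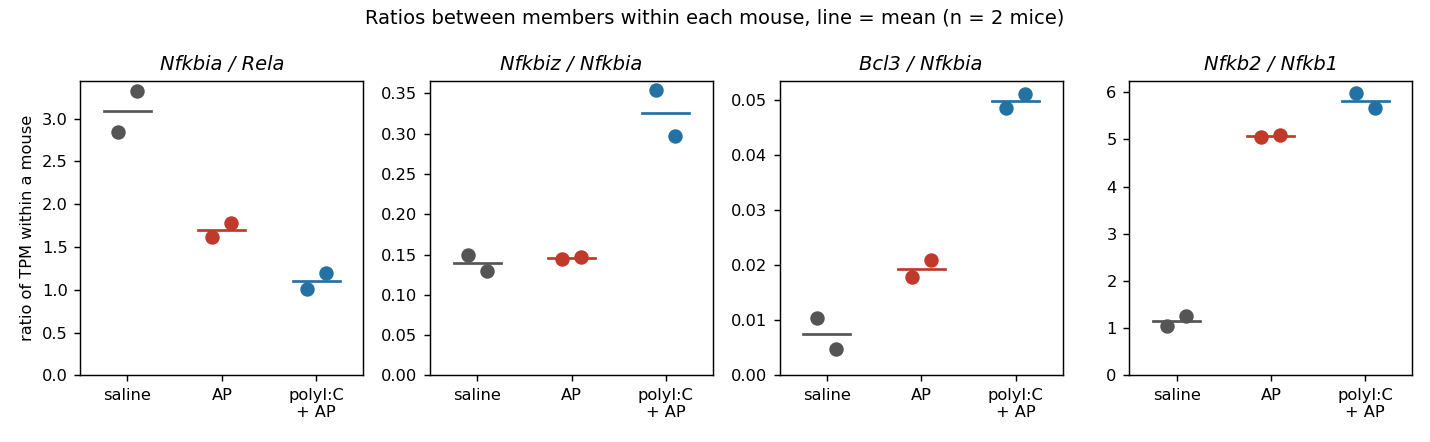
Ratio of the TPM of 2 genes within each mouse (vertical axis, no unit, from 0), where points are mice and lines are group means of 2 mice. Nfkbia over Rela steps down from saline to AP to pretreated mice, while Nfkbiz over Nfkbia and Bcl3 over Nfkbia are highest in the pretreated mice.

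Across the 6 mice, the profiles of Nfkb2 and Relb were the most alike (Pearson r = 0.998), and Nfkbiz was most like Bcl3 (0.987). Nfkbia was least like any of the others, with its highest r at 0.914 to Tnfaip3. These values follow the group means. All 10 genes share the higher mean in both caerulein groups than in saline mice, but not the order of AP and pretreated mice. Among other genes averaging 10 TPM or more, Rab32 (r = 0.999, 7.15 and 6.39 TPM in saline, 37.1 and 40.6 in AP, 31.3 and 27.2 in pretreated mice), Dst and Rhob followed the mean profile of the 10 most closely. Of 9407 genes considered, 1955 reached an r of 0.95, so the pattern was common.

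A wider set held 90 genes of the pathway, of which 76 were tested. In AP against saline mice, limma called 34 of the 76 higher and 0 lower, where 18.2% of all tested genes were higher. With an unadjusted p not above 0.05 and the same 2-fold limit, 35 were called higher, and 26 with voom, none of them lower in either. The median log2 fold change was 1.00. Genes with a saline mean below 1 TPM, such as Cxcl1 (0.270) and Ptgs2 (0.214), passed the filter only through the caerulein groups. This favours genes higher in AP mice in the counts. Without the filter, 33 were called higher. Without AP replicate 1 or 2, the number called was 21 or 22. In pretreated against AP mice 0 were called higher and 2 lower (Ccl2 and Plau), with a median of -0.19, where 0.404% of all tested genes were lower, and limma called 0 of them without AP replicate 1, AP replicate 2 or pretreated replicate 2. Against saline mice 27 were called higher, where 16.9% of all tested genes were, and 2 lower, with a median of 0.82. Leaving out pretreated replicate 1 lowered the last total from 29 to 19.

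Of the other Rel and IκB genes, Rel, which encodes c-Rel of lymphoid and myeloid cells, was measured at 2.48 and 1.69 TPM in saline, 8.27 and 8.72 in AP, and 4.34 and 3.78 in pretreated mice. It rose by 1.82 on the log2 scale in AP mice (limma adjusted p = 0.00111), and the log2 difference with polyI:C was -0.98 (limma adjusted p = 0.108). Nfkbib (IκBβ) had 0.86 in AP mice (limma adjusted p = 0.0807) and Nfkbid (the nuclear IκBNS) 1.62 (limma adjusted p = 0.119), neither past the threshold. Nfkbid varied most between the saline mice, at 0.198 and 2.68 TPM.

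A list of 12 genes held kinases of the pathway and their partner proteins (Ikbkg, Tab1, Tab2 and Tab3). Of the 12, 3 were called higher in AP mice, and the same 3 in pretreated mice. That share of the list was not far from the 18.2% and 16.9% of all tested genes that were called higher. All 3 are kinases, so the share among the kinases alone was larger. The 3 were Map3k8, a kinase bound by p105 (log2 1.69), Ikbke, an IKK-related kinase (1.52), and Map3k14, which encodes NIK of the noncanonical route (1.32). NIK transcripts were at 2.06 and 3.50 TPM in saline, 8.05 and 6.96 in AP, and 6.61 and 5.71 in pretreated mice, without overlap between the groups. The core genes of the canonical kinase complex did not reach the 2-fold limit in AP mice. By adjusted p alone, Ikbkb (log2 0.93, limma adjusted p = 0.000758) and Ikbkg (0.54, limma adjusted p = 0.0141) were higher. Chuk was not (0.18, limma adjusted p = 0.217).

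Of 9 receptors, 6 rose in AP mice (against 18.2% of all tested genes), led by Tlr3 (log2 2.56), Tnfrsf11a, which encodes RANK (2.51), Tnfrsf1a (1.63) and Tnfrsf1b (1.41), which encode the TNF receptors. Tlr3, a receptor of double-stranded RNA, was at 1.10 and 0.783 TPM in saline mice. AP mice had 10.1 and 6.29 TPM and pretreated mice 9.12 and 8.64 TPM, and these groups overlapped. The saline mean of Tlr3, 0.941 TPM, was below the filter, which it passed through the caerulein groups, and this favours its call. Tnfrsf1b was at 8.97 and 5.62 TPM in saline, 16.5 and 23.5 in AP, and 10.3 and 6.15 in pretreated mice, with a log2 difference of -1.26 between the latter groups (limma adjusted p = 0.156). Of 8 ligands, 5 were tested, and Tnf (log2 3.04) and Il1b (2.74) rose in AP mice (against 18.2% of all tested genes), both being cytokines that start the canonical route. With saline means of 0.225 and 0.146 TPM, both passed the filter only through the caerulein groups, which favours their call. Each was listed at 0 in saline replicate 2 and had at most 7.17 TPM in any mouse.

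Among 15 adaptors, 5 rose in AP mice (against 18.2% of all tested genes), led by Myd88 of the Toll-like and IL-1 receptors (log2 2.24), Bcl10 of the CARD complexes (1.73), Tradd of the TNF receptor (1.70) and Irak4 (1.54). Card9, an adaptor of myeloid cells, was at 14.3 and 9.49 TPM in saline, 9.47 and 7.98 in AP, and 2.78 and 3.22 in pretreated mice, and fell in the last against saline mice (log2 -1.80, limma adjusted p = 0.0042). Of 14 ubiquitin enzymes and partners, 4 rose in AP mice, a share not far from the 18.2% of all tested genes called higher. Tnip1, which encodes an A20-binding inhibitor of NF-κB, led them with 3.15 and 3.69 TPM in saline, 68.2 and 65.6 in AP, and 43.1 and 41.8 in pretreated mice. It rose by 4.11 on the log2 scale (limma adjusted p = 1.32e-05), beside 2.41 for Tnfaip3, and the difference with polyI:C was -0.65 (limma adjusted p = 0.0693). The others were Tnip3 (2.40), Rbck1 (1.44) and Otulin (1.02), the latter pair acting on linear ubiquitin chains. With a saline mean of 0.198 TPM, Tnip3 passed the filter only through the caerulein groups, which favours its call.

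Of 30 target genes, 20 were tested and 14 rose in AP mice (against 18.2% of all tested genes). The list shares Tnip1, Nfkbid and Traf1 with the groups above. Ccl2, a chemokine that draws monocytes, led with a log2 fold change of 6.36. It was followed by Ier3 (4.71), the iron-binding Lcn2 (4.21), Tnip1, Cxcl1 (3.98) and Icam1 (2.93). Lcn2 and Cxcl1, with saline means of 0.920 and 0.270 TPM, passed the filter only through the caerulein groups, which favours their call. Ier3, an early response gene, was at 6.66 and 14.9 TPM in saline, 268 and 279 in AP, and 121 and 96.3 in pretreated mice, with a difference between the latter of -1.34 that had a limma adjusted p of 0.138. Plau, which encodes the urokinase plasminogen activator, was at 44.1 and 41.3 TPM in saline, 135 and 124 in AP, and 51.6 and 38.2 in pretreated mice. It rose by 1.59 in AP mice and was lower by a log2 difference of -1.53 with polyI:C (limma adjusted p = 0.0161). Ccl2 was lower with polyI:C by a log2 difference of -3.08 (limma adjusted p = 0.0415). For Lcn2 the pretreated mice were the highest, as for Nfkbiz and Bcl3, at 1.84 TPM and listed at 0 in saline, 22.0 and 17.4 TPM in AP and 25.04 and 42.4 TPM in pretreated mice (log2 0.72, limma adjusted p = 0.707). The dendritic cell activation gene Cd83 was at 3.52 and 11.005 TPM in saline and 0.356 and 1.70 TPM in pretreated mice, and fell by 2.31 on the log2 scale (limma adjusted p = 0.0333).

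**Figure D4:**
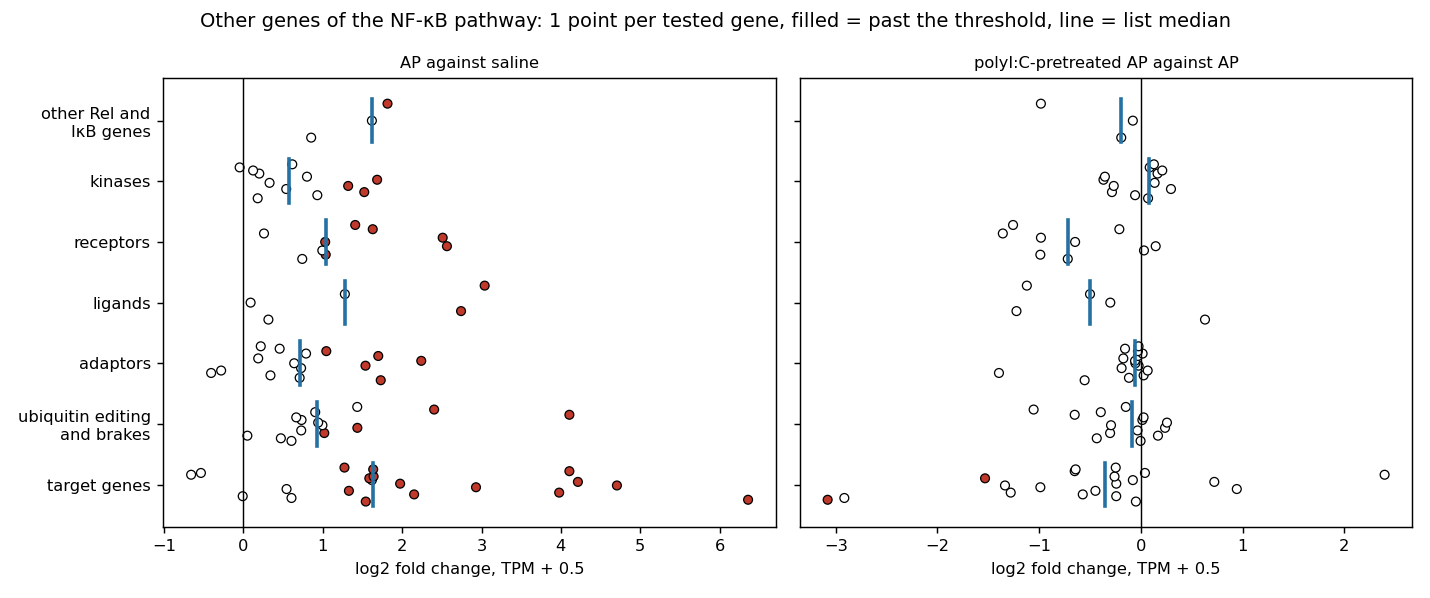
Log2 fold change on the TPM + 0.5 scale (horizontal axis) of the 76 tested genes of the wider pathway, by list, in AP against saline and in pretreated against AP mice, where each point is a gene, filled points passed the threshold and lines are list medians (n = 2 mice per group). Target genes reach a log2 value of 6.36 on the left, and the filled points on the right are Ccl2 and Plau.

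Markers of other cell types differed between the groups too. Neutrophil markers (6 of 8 measured, led by Retnlg) were at 16.6 and 5.15, then 68.2 and 57.9, then 41.8 and 20.1 TPM. Of the 4 tested, 2 were called higher in AP mice, and 0 were called in pretreated against AP mice. From AP to pretreated mice the mean of Retnlg went from 31.7 to 4.51 TPM, and those of S100a9, Csf3r and Cxcr2 were lower too. The means of S100a8 (7.79 and 8.90 TPM) and Elane (0 and 0.867 TPM) were higher in pretreated mice. Duct markers (6 of 6, led by Krt19) were at 181 and 152, then 1492 and 1454, then 1158 and 1188 TPM, and 4 of the 6 were called higher in AP mice. Of 14 acinar markers, 4 were measured, all transcription factors, and summed to 766 and 658, then 320 and 274, then 591 and 605 TPM, while the other 10 were not analysed here. In AP against saline mice, Bhlha15 (log2 -2.83) and Rbpjl (-1.23) were called lower. Ptf1a (0.20) and Nr5a2 (0.16) did not fall and were not called. No measured marker was at 0 in all mice. The part of these markers in the levels of the NF-κB genes was not tested.

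The sum of the macrophage markers rested mostly on Lyz2, and single markers, named here after their values were seen, moved in different directions. In pretreated against saline mice, 3 of the 7 were called higher (Cd14, Cd68 and Fcgr1) and 2 lower (Lyz2 and Csf1r). Cd14, a co-receptor for lipopolysaccharide, was at 15.7 and 13.9 TPM in saline, 218 and 222 in AP, and 216 and 209 TPM in pretreated mice, so it was high in both caerulein groups. Lyz2 was at 444 and 307 TPM in saline, 1891 and 2118 in AP, and 203 and 119 TPM in pretreated mice. Summed T cell markers (3.83 to 11.2 TPM) and endothelial markers (55.8 to 82.8 TPM) overlapped between saline and AP mice. Summed dendritic cell markers (19.6 to 34.1 TPM) overlapped too, but most of that sum was Zbtb46, and of the 3 tested Itgax was called higher in AP mice (log2 1.77). Stellate cell and fibroblast markers were at 100 and 46.5 TPM in saline, 154 and 177 in AP, and 134 and 119 TPM in pretreated mice. Islet markers were at 1271 and 1000, then 1148 and 1050, then 559 and 856 TPM. B cell markers stood apart in AP replicate 2, at 52.2 TPM against 3.69 to 19.1 TPM in the other 5 mice, and their part in the levels of the NF-κB genes was not tested.

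**Figure D5:**
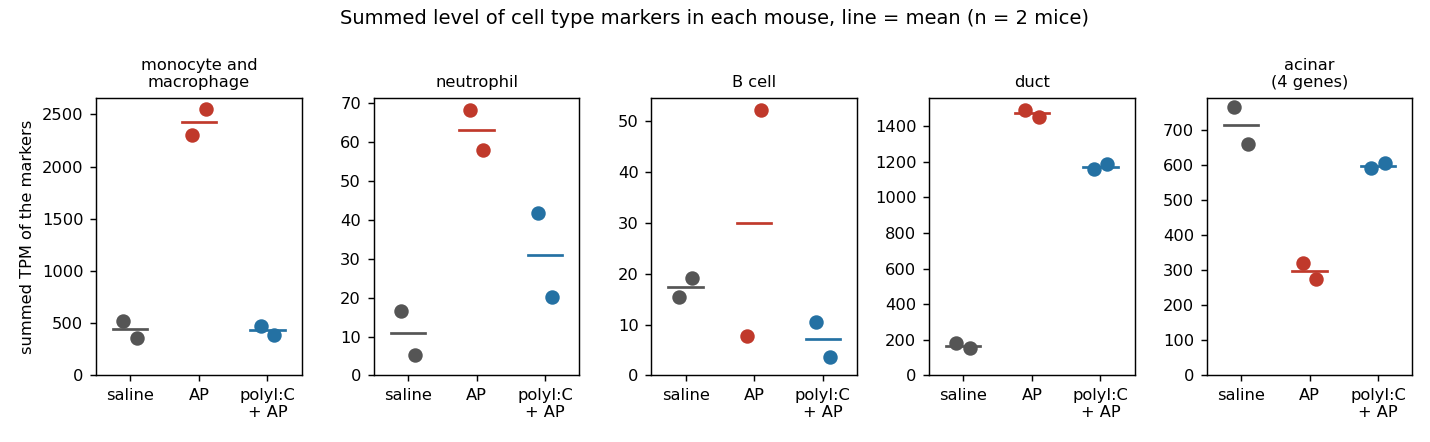
Summed TPM of the markers of 5 cell types (vertical axis, from 0, with its own scale for each) in each mouse, where points are mice and lines are means of 2 mice. The sum of the monocyte and macrophage markers, mostly Lyz2, is high in AP mice and near the saline range in pretreated mice, where Cd14, Cd68 and Fcgr1 were still called higher than in saline mice, duct markers stay high in both caerulein groups, and B cell markers are high in a single AP mouse.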

How the data were processed

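RNA-sequencing of the mouse pancreas was analysed for 2 mice each of 3 groups (saline, caerulein, and polyI:C before caerulein). The values deposited by the authors are TPM, 1 table per mouse, made from reads trimmed with Trimmomatic, mapped to mm10 with STAR and counted with HTSeq. How the counts became TPM, and whether counting used strand, is not given in the sources used here. Groups follow the treatment label, and replicate numbers follow the sample titles. Of 22556 Ensembl identifiers, 22490 were found in GENCODE M21, which gave symbols, exon lengths and GRCm38 coordinates.

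Log2(TPM + 0.5) was taken for the 16814 genes that averaged 1 TPM or more and fitted with limma 3.58.1 (R 4.3.3), with 1 coefficient per group, no block, and a variance prior following log2(mean TPM × exon length + 1). P-values were Benjamini-Hochberg adjusted over all tested genes. On simulated data with known changes, most changed genes were recovered and false calls ran above the nominal rate, so calls near the threshold are less secure than their adjusted p. The simulation's limit on false calls was widened after a first run exceeded it, and the method was kept. Depth was estimated from the steps between low TPM values, by a rule for multiples set after the values were seen, and precision is limited most in the saline libraries.

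The genes, pathway lists and marker lists were chosen with earlier results of these data known. Named are the 10 genes, of each pathway list at most 4 called genes per comparison (6 for targets) by size, Rel, Nfkbib and Nfkbid, the 3 genes most alike in profile, and the most abundant marker of a list. Lists are given as counts and medians without a set test. Alternatives were other pseudocounts, filters, scalings, priors, voom, a replicate block and leaving out each mouse.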

Additional observations from a re-analysis of the deposited data

How the results depend on the processing

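The groups hold 2 mice each, and the saline levels of Bcl3 and Nfkbie rest on few reads. Of 510 values for the 10 genes under alternatives, 493 kept their direction and their side of the threshold. Many of the 510 could not change direction. Other filters, priors or p rules, the replicate block and a fit of only the 2 compared groups leave the log2 fold change as it was. In these, only the call could move. In AP against saline mice 10 genes were called, 6 with median-of-ratios scaling (median of all genes 0.04 in place of 0.45), and 9 to 10 when a mouse was left out. In pretreated against AP mice 0 were called, and 1 (Nfkbia) with quantile normalization or with the adjusted p alone. Nfkbia in pretreated against saline mice went from 0.44 to -0.033 with median-of-ratios scaling. Of the wider pathway, 34 genes were called in AP against saline mice, and 21 to 35 when a mouse was left out, with the low values without AP replicate 1 (21) or 2 (22). In pretreated against AP mice 2 pathway genes were called, and 1 with a pseudocount of 0.1 or no filter. With one prior for all genes or a prior following the mean 0 were called, and 7 with voom. An unadjusted p with the same 2-fold limit gave 9. Over all genes this comparison had 142 calls, 28 with the prior following the mean, 41 with one prior and 90 with no filter. It had 324 with voom and 728 with unadjusted p and the same 2-fold limit. In it, 0 genes were called by limma without AP replicate 1, AP replicate 2 or pretreated replicate 2. In pretreated against saline mice 29 pathway genes were called, 17 with median-of-ratios scaling, 16 with quantile normalization, 17 with voom, 47 with the adjusted p alone, and 19 to 32 when a mouse was left out. The cause of these shifts was not tested. Same-numbered mice did not deviate together (correlations 0.0075, -0.0039 and 0.035), and the replicate block left 10, 0 and 7 of the 10 genes called and 33, 2 and 26 of the pathway genes.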
